A study of Homo sapiens with 9 samples.

Results

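Long noncoding RNAs with a LINC name and antisense RNAs named after the gene on the opposite strand were followed in tumours of Huh-7, an established human hepatocellular carcinoma cell line. Members were all rows of the deposited table whose name is LINC followed by digits, or ends in -AS and 1 digit, and whose raw count averaged 50 or more over the 9 libraries. The rule took 212 of 50868 rows, of which 84 had a LINC name and 128 an antisense name. They were thus chosen by a measured value, the mean raw count over all groups, so their level is part of the choice. A further 3351 rows with such names lay below the limit, 1832 of them without a count in any library.

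The tumours were grown under the skin of NOD/SCID mice, which lack T and B cells and keep macrophages. When tumours had reached about 100 mm3, adenovirus was injected into them every 4 days over 8 days. The 3 groups of 3 libraries received Ad-GFP (green fluorescent protein, the control), Ad-HNF4A (HNF4A) or Ad-K458R (HNF4A carrying K458R, a lysine-to-arginine change). All tumours therefore carried an adenovirus, and neither the promoter in the vectors nor the share of tumour cells reached is stated in the labels. Below, the vectors are Ad-HNF4A and Ad-K458R, while Ad-GFP, itself an adenoviral vector, is called the control or Ad-GFP. The labels do not say that the libraries of a group came from separate animals, so the p-values reflect the spread among libraries, which may be technical. Library totals ran from 15933702 to 23171796 counts. Levels are given as CPM, counts scaled to the same library total in each library after TMM normalisation (counts per 1000000).

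Long noncoding RNAs are transcripts that are not known to code for protein, and many act in the nucleus near the gene that makes them. An antisense RNA is made from the strand opposite to another gene and may overlap it, start from a shared promoter region and run the other way, or lie inside one of its introns. HNF4A is a nuclear receptor that binds DNA as a dimer and governs many genes of the hepatocyte. The series asks, by its title, what the K458R change of HNF4A does in hepatocellular carcinoma. HNF4A itself, the gene both vectors carry, had 169 ± 14.4 CPM in the control group (SD, n = 3), against 4199 ± 1036 in Ad-HNF4A and 5300 ± 264 in Ad-K458R tumours.

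RNA was captured by its poly(A) tail, a method that captures noncoding RNAs without such a tail poorly. No step that keeps the strand is described. Reads of an antisense RNA and of the gene opposite to it may therefore not have been told apart where their exons overlap. This also holds for reads of unspliced RNA where an exon of one lies in an intron of the other. Of the 212 members, 125 overlapped another tested gene by deposited position, 117 of them a gene on the opposite strand. Of these 125, 108 shared exon bases with an overlapping gene in GENCODE 29. Members without such an overlap were not counted here, although GDNF-AS1 shares 526 exon bases with GDNF. In bulk tumour RNA, fewer cells that express a gene and less RNA per cell cannot be told apart.

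The start regions of the 4 members with the largest rises against Ad-GFP are printed because these RNAs carry most of the response described here. Each is 250 bases before to 50 bases after the start in RefSeq (GRCh38.p14), 5′ to 3′ on the transcribed strand. They are HNF4A-AS1 at chr20:44395613-44395912 on the minus strand, and, on the plus strand, SRGAP3-AS2 at chr3:9192243-9192542, GDNF-AS1 at chr5:37839634-37839933 and LINC02754 at chr11:67884178-67884477. The start in the deposited table was the same for SRGAP3-AS2 and differed by 44 bases for HNF4A-AS1, 554 for GDNF-AS1 and 2049 for LINC02754. Capitals mark AAAGTCC, the core of a sequence that HNF4A dimers bind. It was found only in the HNF4A-AS1 region among these 4.
HNF4A-AS1: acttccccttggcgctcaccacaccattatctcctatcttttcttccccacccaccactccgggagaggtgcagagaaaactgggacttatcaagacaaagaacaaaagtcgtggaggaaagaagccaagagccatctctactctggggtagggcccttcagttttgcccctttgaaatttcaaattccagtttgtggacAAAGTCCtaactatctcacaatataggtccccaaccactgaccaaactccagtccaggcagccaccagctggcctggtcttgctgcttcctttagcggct
SRGAP3-AS2: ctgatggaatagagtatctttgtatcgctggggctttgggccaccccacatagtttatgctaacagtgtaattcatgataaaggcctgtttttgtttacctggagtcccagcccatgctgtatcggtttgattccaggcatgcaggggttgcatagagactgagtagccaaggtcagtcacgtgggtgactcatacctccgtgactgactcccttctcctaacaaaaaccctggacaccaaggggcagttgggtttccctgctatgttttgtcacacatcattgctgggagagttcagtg
GDNF-AS1: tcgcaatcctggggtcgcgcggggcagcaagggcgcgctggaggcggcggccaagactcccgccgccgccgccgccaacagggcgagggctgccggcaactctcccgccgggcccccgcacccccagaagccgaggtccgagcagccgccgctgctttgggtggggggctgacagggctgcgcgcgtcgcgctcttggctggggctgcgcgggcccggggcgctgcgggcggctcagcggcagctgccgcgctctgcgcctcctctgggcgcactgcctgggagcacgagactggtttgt
LINC02754: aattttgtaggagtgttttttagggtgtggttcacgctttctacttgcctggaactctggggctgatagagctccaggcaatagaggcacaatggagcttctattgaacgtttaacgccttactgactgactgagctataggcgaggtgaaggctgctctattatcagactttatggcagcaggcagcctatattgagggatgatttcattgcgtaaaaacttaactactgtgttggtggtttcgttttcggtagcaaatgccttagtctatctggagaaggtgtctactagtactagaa

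In HNF4A-AS1 the AAAGTCC match begins 50 bases before the start, at position 201 of the 300 bases. The same letters, on either strand, occurred in 9 of the 153 members with a start region in RefSeq (5.88%) and in 1019 of 27305 start regions of all genes (3.73%). The longer CAAAGTCCA, of which AAAGTCC is a part, occurred in 1 of 153 members and in 0.359% of all start regions. A further form, CAAAGGTCA, was in 0 of 153 members and in 0.410% of all. A match of letters is a description and does not show that HNF4A binds there, and the absence of these letters from a window says nothing about binding.

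The noncoding RNAs made up a small share of the RNA. Their summed level lay between 2113 and 2209 CPM in the 9 libraries, with the 3 groups overlapping. As a share of raw counts it was 0.2097% to 0.2139% in the Ad-GFP libraries, 0.2142% to 0.2211% in Ad-HNF4A and 0.2149% to 0.2187% in Ad-K458R, so that on this scale, without TMM scaling, the control libraries lay below the rest. Mean levels were under 5 CPM for 82 members, from 5 to 10 CPM for 74, from 10 to 50 CPM for 52 and above 50 CPM for 4. Per kb of exon, the median member reached 1.70 CPM with Ad-GFP (210 members with an exon length in GENCODE 29), against 4.84 for 13497 protein-coding genes. GENCODE 29 lists 87 members as antisense, 77 as lincRNA and 33 as processed transcripts. It lists 1, LINC02693, as protein-coding.

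The 10 members with the most counts held 28.3% to 30.3% of the members' summed CPM in each library. On the scale of CPM per kb of exon with Ad-GFP, LINC01419 was the highest of these 10 at 56.6, followed by ARHGAP5-AS1 at 32.3, FGD5-AS1 at 28.96, LINC00261 at 22.0 and LINC00888 at 19.9. OTUD6B-AS1 (5.40), PSMA3-AS1 (4.68), LINC00963 (3.33), LINC02693 (2.49) and OIP5-AS1 (1.97) were lower on that scale. None of the 10 passed the test in any comparison. FGD5-AS1 differed little between groups: its means were 149 ± 7.50 CPM in the control (SD, n = 3), 151 ± 7.01 in Ad-HNF4A and 148 ± 0.761 in Ad-K458R tumours.

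LINC00261, which lies 2363 bases from FOXA2, the gene of a transcription factor that opens liver chromatin, stood at 122 ± 2.66, 117 ± 6.18 and 108 ± 5.50 CPM in the same order. Its log2 fold changes of -0.06 and -0.17 against Ad-GFP had adjusted p of 0.68 and 0.22 (edgeR's quasi-likelihood test, Benjamini-Hochberg over all genes). FOXA2 had log2 fold changes of 0.13 and 0.08 (adjusted p = 0.64 and 0.83). ARHGAP5-AS1, opposite ARHGAP5, stood at 59.8 ± 4.62, 47.7 ± 3.48 and 56.2 ± 2.26 CPM. Its 3 Ad-HNF4A libraries lay below the 3 Ad-GFP libraries, and its log2 fold change of -0.33 missed the threshold (adjusted p = 0.057), although DESeq2, upper quartile scaling and a fit with no filter on low counts called it.

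With Ad-HNF4A, 5 members rose and 1 fell against Ad-GFP. HNF4A-AS1, GDNF-AS1, SRGAP3-AS2, LINC02754 and C1RL-AS1 rose, and TAF1A-AS1 fell. With Ad-K458R the same 5 RNAs rose and no member fell, at an adjusted p under 0.05 in edgeR. The 5 are 2.36% of the members, where 3.16% of all 16697 genes tested passed as higher in the former comparison and 3.32% in the latter. The fall was 0.472% of the members with Ad-HNF4A, where 0.305% of all genes were lower, and 0.234% of all genes were lower with Ad-K458R. At an unadjusted p under 0.05, 7 members were lower with Ad-K458R by edgeR, while after adjustment DESeq2 called 1 lower (LINC01963) and limma-voom 0. The shares called lie near those of all genes, so the number of calls is not particular to noncoding RNAs. Both comparisons use the same Ad-GFP libraries.

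The limit on mean count bears on these rises. In Ad-GFP, 7 of the 212 members had a mean raw count under 50, and 4 of the 5 that rose were among them (HNF4A-AS1, GDNF-AS1, SRGAP3-AS2 and LINC02754). Those 4 passed the limit through the groups where they were high, so their presence among the members supports nothing on its own. C1RL-AS1 and TAF1A-AS1 had mean raw counts of 184 and 110 in Ad-GFP. Just inside the limit lay PPP3CB-AS1 and LIFR-AS1 (mean raw count 50.3) and NAPA-AS1 (51.0), and just outside TRHDE-AS1 (49.4), LINC01355 (49.6) and CCDC183-AS1 (49.7).

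HNF4A-AS1 (ENSG00000229005), an antisense RNA of liver and gut, had the largest rise with both vectors. Raw counts were 19, 10 and 5 in the Ad-GFP libraries, 45, 51 and 85 with Ad-HNF4A and 92, 94 and 80 with Ad-K458R. In CPM these were 0.840, 0.544 and 0.242, then 2.82, 2.96 and 4.29, then 5.06, 4.24 and 4.46. Every library with either vector lay above every Ad-GFP library, and the vector groups overlapped each other. On the log2 scale it rose by 2.61 ± 0.34 with Ad-HNF4A (SE, edgeR's adjusted p = 0.0015) and by 3.05 ± 0.33 with Ad-K458R (adjusted p = 0.00033), or 6.09-fold and 8.28-fold.

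The gene lies on chromosome 20, 44372746 to 44395706 on the minus strand of GRCh38, wholly inside HNF4A (44355700 to 44434596 on the plus strand). Its exons share 0 bases with exons of HNF4A in GENCODE 29, and its start is 40006 bases downstream of the start of HNF4A. The map of both genes shows that its exons lie in introns of HNF4A. Whether reads of unspliced HNF4A RNA were counted for HNF4A-AS1 was not tested. HNF4A rose by 4.64 and 4.97 on the log2 scale. How much of that came from the vector and how much from the cells' own gene was not measured by these counts.

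**Figure D1:**
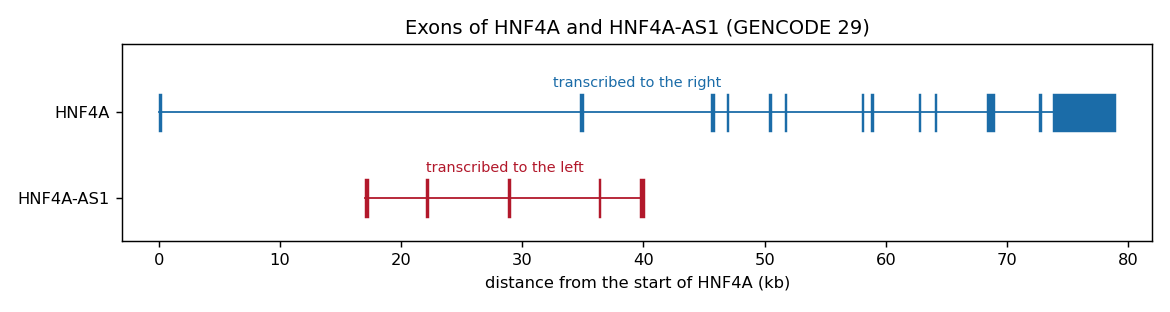
Exons (boxes) of HNF4A and HNF4A-AS1 from GENCODE 29, along the distance in kb from the start of HNF4A. HNF4A-AS1 runs in the opposite direction inside HNF4A, and no box of one gene overlaps a box of the other (0 shared exon bases).

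SRGAP3, a gene for a Rac GTPase-activating protein of neurons, contains SRGAP3-AS2 (ENSG00000228723, chromosome 3, 9192493 to 9194453, plus strand). SRGAP3-AS2 shares 0 exon bases with SRGAP3. It stood at 1.15, 0.816 and 0.822 CPM in the Ad-GFP libraries, 2.76, 2.09 and 3.18 with Ad-HNF4A and 5.77, 3.97 and 4.35 with Ad-K458R. The 3 groups did not overlap, with Ad-K458R the highest. The log2 fold changes were 1.51 ± 0.26 (adjusted p = 0.0081, edgeR) and 2.32 ± 0.25 (adjusted p = 0.0003). SRGAP3 itself stood between 14.3 and 17.1 CPM in all libraries, with log2 fold changes of 0.10 (adjusted p = 0.70) and -0.01 (adjusted p = 0.98).

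GDNF-AS1 (ENSG00000248587; chromosome 5, 37840438 to 37875799, plus strand) starts 752 bases from GDNF, the gene of a neurotrophic factor that signals through RET, and runs away from it. It stood at 1.19, 1.36 and 0.822 CPM with Ad-GFP, 4.57, 3.31 and 3.73 with Ad-HNF4A and 5.17, 3.79 and 4.69 with Ad-K458R. Every vector library lay above every Ad-GFP library, and the vectors overlapped. The rise was 1.78 ± 0.24 on the log2 scale with Ad-HNF4A (adjusted p = 0.0016, edgeR) and 2.01 ± 0.23 with Ad-K458R (adjusted p = 0.00052).

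GDNF stood at 2.17, 2.94 and 1.64 CPM with Ad-GFP, 3.32, 4.24 and 5.0 with Ad-HNF4A and 4.45, 3.16 and 5.24 with Ad-K458R. Its log2 fold changes of 0.91 ± 0.27 (adjusted p = 0.11, edgeR) and 0.93 ± 0.26 (adjusted p = 0.10) did not pass, although its groups did not overlap against Ad-GFP. In GENCODE 29, whose GDNF is longer than that of the table, the exons share 526 bases, 5.33% of GDNF-AS1. How reads in those bases were assigned was not tested.

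LINC02754 (ENSG00000251637; chromosome 11, 67886477 to 67906350, plus strand) overlaps no tested gene. It stood at 1.19, 2.99 and 1.30 CPM with Ad-GFP, 3.63, 4.30 and 6.0 with Ad-HNF4A and 5.44, 5.6 and 5.19 with Ad-K458R. The groups did not overlap against Ad-GFP, although Ad-GFP replicate 2 lay close to the lowest Ad-HNF4A library. The rise was 1.37 ± 0.32 with Ad-HNF4A (adjusted p = 0.048, edgeR) and 1.58 ± 0.32 with Ad-K458R (adjusted p = 0.022). Its nearest tested coding gene, UNC93B1, which carries Toll-like receptors to endosomes, lies 84754 bases away and had log2 fold changes of 0.22 (adjusted p = 0.23) and 0.06 (adjusted p = 0.85).

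C1RL-AS1 (ENSG00000205885; chromosome 12, 7108052 to 7122501, plus strand) lies opposite C1RL, a gene for a protease related to complement C1r, and shares 205 exon bases (3.36%) with it. It stood at 8.40, 8.97 and 9.52 CPM with Ad-GFP, 13.8, 12.2 and 14.2 with Ad-HNF4A and 14.7, 11.8 and 12.3 with Ad-K458R. The rises of 0.58 ± 0.12 (adjusted p = 0.027, edgeR) and 0.53 ± 0.12 (adjusted p = 0.04) were the smallest of the 5, 1.495-fold and 1.443-fold. C1RL had log2 fold changes of 0.05 (adjusted p = 0.86) and -0.19 (adjusted p = 0.50).

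TAF1A-AS1 (ENSG00000225265; chromosome 1, 222589825 to 222593032, plus strand) begins within TAF1A, the gene of a subunit of the RNA polymerase I factor SL1, and shares 109 exon bases (7.52%) with it. It stood at 5.79, 5.38 and 4.88 CPM with Ad-GFP, 3.19, 3.42 and 3.23 with Ad-HNF4A and 3.46, 4.29 and 3.79 with Ad-K458R. All vector libraries lay below all Ad-GFP libraries. The log2 fold change was -0.70 ± 0.15 with Ad-HNF4A (adjusted p = 0.03, edgeR) and -0.47 ± 0.15 with Ad-K458R (adjusted p = 0.15). TAF1A had log2 fold changes of -0.15 and 0.01 (adjusted p = 0.60 and 0.99).

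**Figure D2:**
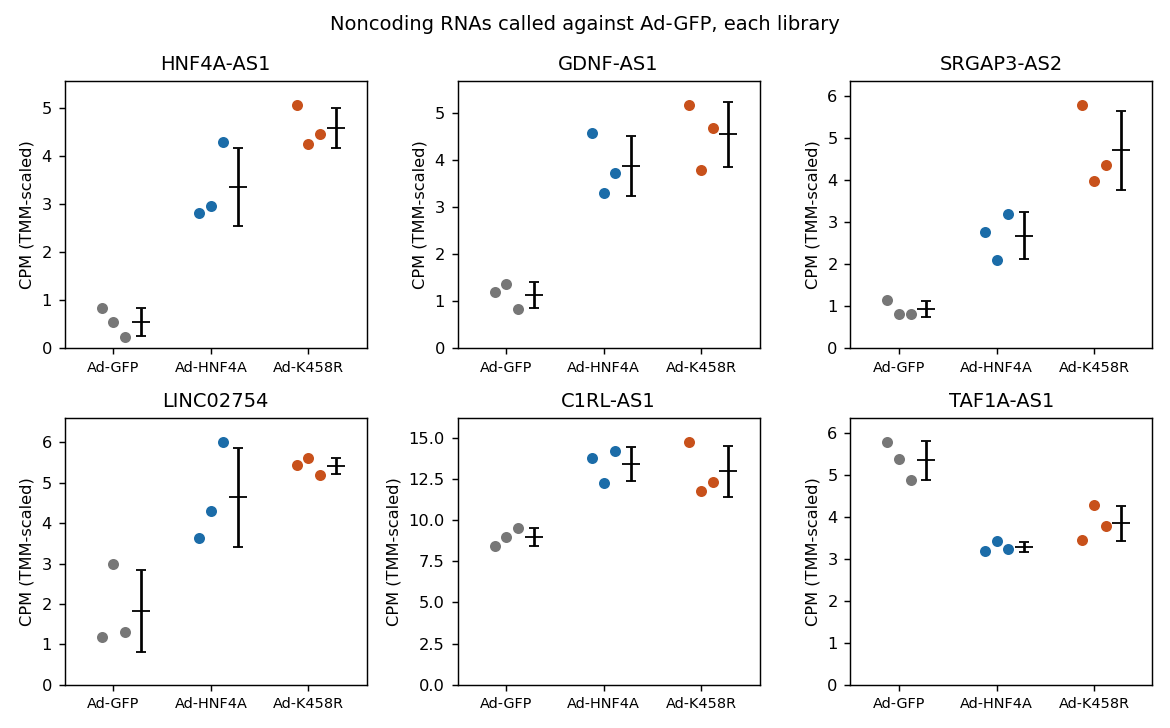
Level in CPM (vertical axis, from 0) of the 6 noncoding RNAs called against Ad-GFP, by group. Points are libraries (replicates 1 to 3 from left to right) and the bar beside them is the mean ± SD. In each panel the 3 Ad-GFP libraries lie apart from the 6 libraries with Ad-HNF4A or Ad-K458R.

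HNF4A-AS1, GDNF-AS1 and SRGAP3-AS2 were called in each of 18 other fits in both comparisons. C1RL-AS1 was called in 10 of 18 with Ad-HNF4A and 8 of 18 with Ad-K458R, LINC02754 in 6 and 13, and the fall of TAF1A-AS1 in 10. Ad-HNF4A replicate 1 stood apart from the other libraries on the second principal component of all genes (46.1, the rest between -11.2 and 4.1). Without it, the 3 rises just named were called with Ad-HNF4A, those of C1RL-AS1 and LINC02754 were lost, and no member fell. When other libraries were left out in turn, the calls of C1RL-AS1 and LINC02754 were likewise lost without Ad-GFP replicate 1 or 3 in both comparisons, without Ad-HNF4A replicate 3, and without any 1 of the Ad-K458R libraries. C1RL-AS1 was also lost without Ad-GFP replicate 2 in both, and LINC02754 without Ad-HNF4A replicate 2. Of these 6 fits with Ad-HNF4A, TAF1A-AS1 was called only in the one without Ad-HNF4A replicate 2.

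Some human genes used as markers of other cell types moved with the vectors. The host's own cells are mouse cells, and how mouse reads were treated is not stated. As a background, 3.16% of all genes tested were higher with Ad-HNF4A and 3.32% with Ad-K458R. Among 7 macrophage markers, 6 were tested, of which 3 were higher with Ad-HNF4A and 4 with Ad-K458R. Their summed level was 16.6 to 19.6 CPM in the control libraries, 30.0 to 37.0 in Ad-HNF4A and 38.5 to 42.5 in Ad-K458R libraries, and TYROBP had no counts in the control. Of 2 endothelial markers tested of 5, 1 (VWF) was higher in both and KDR was at 0 in all libraries, with summed levels of 38.8 to 42.0, 48.1 to 58.8 and 41.4 to 48.0 CPM. None of 5 fibroblast markers tested of 6 passed. The 8 hepatoma markers, led by AFP and APOB, had summed levels of 29408 to 30323 CPM in the control libraries, 29502 to 31959 in Ad-HNF4A and 27472 to 27971 in Ad-K458R libraries, the last below all others. Of them APOA1 was higher with both vectors and GPC3 lower with Ad-K458R. Whether the counts of these markers came from Huh-7 cells or from mouse reads was not tested. The part of other cells in the changes of the noncoding RNAs was not tested either.

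Most members changed little. The median log2 fold change against Ad-GFP was 0.0160 with Ad-HNF4A and 0.0059 with Ad-K458R, beside 0.0058 and -0.0041 over all genes tested. With Ad-HNF4A 189 of 212 members (89.2%) lay within 0.5 of 0 on the log2 scale, and with Ad-K458R 202 (95.3%), beside 87.3% and 88.7% of all genes. The 95% interval of the log2 fold change lay wholly within 1 of 0 for 185 and 193 members (87.3% and 91%). This held for 78.2% and 79.4% of all genes. At an unadjusted p under 0.05 there were 30 members with Ad-HNF4A (14.2%, where 16.6% of all genes were) and 17 with Ad-K458R (8.02%, where 14% of all genes were). In the plot of change against level, C1RL-AS1 stands at a mean of 11.8 CPM and the other 4 that rose below 4 CPM, where the limit on mean count bears on them as described.

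**Figure D3:**
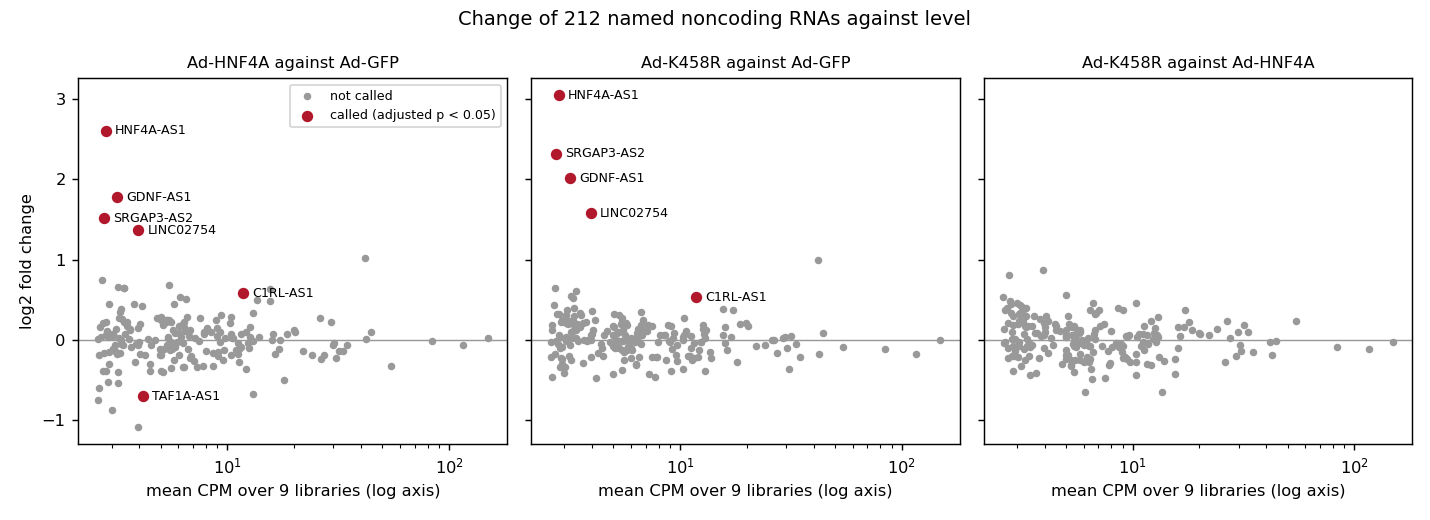
Log2 fold change of the 212 noncoding RNAs (vertical axis) against their mean CPM over 9 libraries (log axis) in the 3 comparisons. Red points passed an adjusted p of 0.05: 6 with Ad-HNF4A, 5 with Ad-K458R and 0 between the vectors.

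The groups did not overlap for 43 members with Ad-HNF4A against Ad-GFP (20.3%, 22 higher and 21 lower), where 21.4% of all genes did not. With Ad-K458R this held for 37 members (17.5%, 15 higher and 22 lower), where it held for 23.7% of all genes. By direction, 10.4% of members were higher and 9.91% lower with Ad-HNF4A (12.2% and 9.16% of all genes), and 7.08% higher and 10.4% lower with Ad-K458R (13.2% and 10.6% of all genes). In 9 members both vectors lay above Ad-GFP without overlap (4.25%, where 7.18% of all genes did), and in 8 both lay below (3.77%, where 3.87% of all genes did), with the Ad-GFP libraries shared. Beside the called ones, the 9 comprised KIF9-AS1, LINC01277, LINC02609 and ZNF528-AS1, and the 8 comprised LINC00641, LINC01139, LINC01515, LINC02616, TRIM52-AS1, UBL7-AS1 and ZNF710-AS1, none of which passed edgeR's adjusted test, although DESeq2 called the fall of TRIM52-AS1 with Ad-HNF4A. ZNF528-AS1 came closest, with log2 fold changes of 0.75 (adjusted p = 0.066) and 0.64 (adjusted p = 0.13). In TRIM52-AS1 they were -0.87 (adjusted p = 0.068) and -0.41 (adjusted p = 0.45).

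Between the vectors no member passed the adjusted test, by edgeR, DESeq2 or limma-voom. Of all genes, 0.00599% were higher with Ad-K458R and 0.00599% lower, 1 gene each way. At an unadjusted p under 0.05 there were 18 members (8.49%, where 8.74% of all genes were), and the groups did not overlap for 34 (16%, where 14.4% of all genes did not). The log2 difference lay within 0.5 for 206 of 212 members (97.2%) and its 95% interval within 1 for 197 (92.9%). For all genes these shares were 92.1% and 81.4%. That no difference passed does not show that the vectors act alike on these RNAs.

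The 5 members with the smallest p between the vectors were LINC00857, SRGAP3-AS2, EGFR-AS1, SDCBP2-AS1 and NNT-AS1. LINC00857 (chromosome 10, 80207710 to 80219657), which lies 2138 bases from ANXA11, a gene for a calcium-dependent membrane-binding protein, stood at 19.8, 20.4 and 20.7 CPM with Ad-K458R. With Ad-HNF4A it stood at 14.6, 16.2 and 16.4 CPM, and with Ad-GFP at 17.0, 14.5 and 15.6 CPM. All Ad-K458R libraries were the highest, by 0.37 ± 0.10 on the log2 scale over Ad-HNF4A (adjusted p = 0.36, 95% interval 0.16 to 0.58, edgeR). Its change against Ad-GFP was 0.37 with Ad-K458R (adjusted p = 0.067) and 0.00 with Ad-HNF4A. The rise with Ad-K458R was called in 4 of 18 other fits, by DESeq2, both limma-trend fits and library totals alone.

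SRGAP3-AS2 was higher by 0.80 ± 0.23 with Ad-K458R than with Ad-HNF4A (adjusted p = 0.39, 95% interval 0.31 to 1.30, edgeR). EGFR-AS1, inside the gene of the EGF receptor, differed by 0.46 (adjusted p = 0.39). NNT-AS1, beside the gene of the mitochondrial nicotinamide nucleotide transhydrogenase, differed by 0.39 (adjusted p = 0.43). SDCBP2-AS1 was at 17.7, 17.8 and 21.5 CPM with Ad-HNF4A and at 16.05, 14.3 and 11.99 CPM with Ad-K458R, a difference of -0.43 (adjusted p = 0.43). The libraries of the vectors did not overlap in any of these 5, with Ad-K458R lower in SDCBP2-AS1 and higher in the other 4. A two-sided exact permutation test gave p = 0.1 for each, the smallest that 3 against 3 allows. Groups that do not overlap always give this value, so it adds nothing to the lack of overlap.

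Antisense RNAs were then set beside the genes they are named for. Of 128 such members, 126 had that gene in the table and 109 had it among the tested genes. The strands were opposite in 125 pairs, positions overlapped in 111, exon bases were shared in 92, and 13 pairs ran apart from starts within 1000 bases of each other. Per kb of exon, the antisense RNA was below its partner in 82 of 108 tested pairs with both lengths, and the median antisense RNA reached 34.7% of the partner's CPM per kb.

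The changes of RNA and partner were related in part with Ad-HNF4A, and little with Ad-K458R outside the pair of HNF4A. Over the 109 pairs, Pearson's r of the log2 fold changes was 0.60 with Ad-HNF4A and 0.56 with Ad-K458R, and Spearman's rank correlation was 0.46 and 0.16. Without the pair of HNF4A, whose mRNA the vectors carry, r was 0.33 and 0.17 over 108 pairs. Spearman's rank correlation was then 0.44 and 0.14. These values were added after the data had been seen. The signs were the same in 71 and 52 of the 109 pairs. Both values of a pair come from the same libraries and in part from shared positions, and pairs are not replicates.

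Of the 109 tested partners, 5 passed as higher with Ad-HNF4A, among them BBOX1, HNF4A, SDCBP2 and TPT1. With Ad-K458R 6 passed as higher, among them BBOX1, HNF4A, LAMTOR5, PAX8 and SDCBP2. HNF4A, counted in both, is the gene the vectors carry. The shares over all genes tested were 3.16% and 3.32%. TMPO was lower with Ad-K458R, as were 0.234% of all genes. HNF4A and HNF4A-AS1 were the only pair in which both genes passed by edgeR, in either comparison. BBOX1, the enzyme of the last step of carnitine synthesis, stood at 0.486, 0.218 and 0.483 CPM with Ad-GFP, 2.13, 2.21 and 1.16 with Ad-HNF4A and 2.36, 1.85 and 2.4 with Ad-K458R. Its log2 fold changes were 2.16 (adjusted p = 0.0081, edgeR) and 2.43 (adjusted p = 0.0029), whereas BBOX1-AS1, with 0 shared exon bases, had -0.18 and -0.13 (adjusted p = 0.42 and 0.66).

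SDCBP2, a gene for a syntenin-like scaffold protein, rose by 1.12 (adjusted p = 0.0061) and 0.99 (adjusted p = 0.011). SDCBP2-AS1, which shares 120 exon bases with it, had 0.48 (adjusted p = 0.086, edgeR) and 0.06 (adjusted p = 0.91), and DESeq2 called its rise with Ad-HNF4A.

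**Figure D4:**
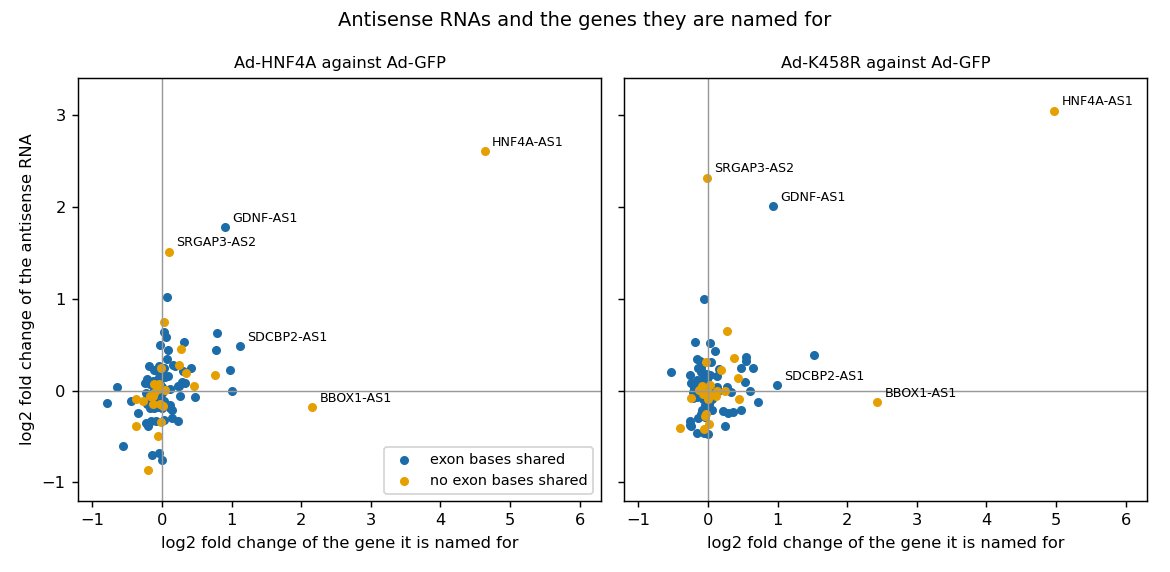
Log2 fold change of 109 antisense RNAs (vertical axis) against that of the gene each is named for (horizontal axis), by vector and by shared exon bases in GENCODE 29. HNF4A-AS1 lies far to the upper right, SRGAP3-AS2 rises above a partner near 0, and BBOX1-AS1 stays near 0 beside a partner at 2.16 and 2.43.

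The LINC members lay farther from coding genes, at a median distance of 41151 bases to the nearest tested coding gene, with 10 overlapping one and 23 more than 100 kb away. Among the nearest coding genes of the 84 LINC members, some of them shared, none was higher with either vector. Over all genes tested, 3.16% were higher with Ad-HNF4A and 3.32% with Ad-K458R. TENT5A near LINC02542 was lower with Ad-HNF4A (log2 fold change -0.39, edgeR's adjusted p = 0.04), as were 0.305% of all genes. NR4A2 near LINC01876 was lower with Ad-K458R (-0.80, adjusted p = 0.047), as were 0.234% of all genes. LINC02542 and LINC01876 were not called.

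Lists of noncoding RNAs place these values among other transcripts of the kind. Of 15 liver-enriched long noncoding RNAs, 6 were tested and 3 were members, and HNF4A-AS1 was the 1 that passed with each vector. Over all genes tested, 3.16% were higher with Ad-HNF4A and 3.32% with Ad-K458R. LINC00844 and LINC01370 had no counts in any library. HULC, an RNA abundant in liver cancer, stood at 8.14 ± 0.767, 8.48 ± 0.676 and 7.31 ± 1.21 CPM, and MIR122HG, the host of a liver microRNA, at 12.4 ± 1.45, 14.6 ± 1.15 and 10.1 ± 0.341 CPM, and neither passed. The list's median log2 fold change was 0.14 with Ad-HNF4A and -0.12 with Ad-K458R, beside 0.0058 and -0.0041 over all genes tested.

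The shares of all genes that were higher were 3.16% with Ad-HNF4A and 3.32% with Ad-K458R. Of 26 widely expressed long noncoding RNAs, all tested, 1 passed as higher with Ad-HNF4A and 0 with Ad-K458R. It was KCNQ1OT1, the imprinted antisense RNA of KCNQ1, at 41.5 ± 2.20 CPM with Ad-GFP, 54.6 ± 5.30 with Ad-HNF4A and 53.0 ± 3.27 with Ad-K458R (log2 fold changes 0.40, adjusted p = 0.033, and 0.35, adjusted p = 0.054). Of 25 long noncoding RNAs studied in hepatocellular carcinoma, 20 were tested, 8 were members and 0 passed in any comparison by edgeR. At an unadjusted p under 0.05 there were 3, 2 and 1 of the 20 with Ad-HNF4A, with Ad-K458R and between the vectors (15%, 10% and 5%), where 16.6%, 14% and 8.74% of all genes were. H19 had no counts in any library. As a reference for the size of the response, 11 of 12 coding genes known to respond to HNF4A were higher with Ad-HNF4A and 10 with Ad-K458R, with median log2 fold changes of 1.49 and 2.04. That list's direction is not independent evidence, since earlier results of these data were known.

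A few members differed more between libraries of a group than between groups. The highest library of a group was more than 3 times the lowest in at least 1 group for 10 of 212 members (4.72%) and for 2.19% of 12583 other tested genes with a mean raw count of 50 or more. For more than 2 times the shares were 11.8% and 6.91%. The sets were not matched for level, on which such ratios depend. The median member stood at 5.75 CPM, against 25.6 CPM for protein-coding genes tested. HNF4A-AS1 was 1 of the 10, at 0.242 to 0.840 CPM within Ad-GFP. In GABPB1-AS1 (chromosome 15, 50354959 to 50372202), chosen with the next 3 after their values were seen, the levels were 5.22, 26.6 and 5.32 CPM with Ad-GFP, 22.9, 24.6 and 4.84 with Ad-HNF4A and 2.58, 23.2 and 6.86 with Ad-K458R. The 9 values fell into a low set up to 6.86 CPM and a high set from 22.9 CPM, with both sets in every group. GABPB1, on the other strand, stood between 35.0 and 40.0 CPM throughout.

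OIP5-AS1, known in other vertebrates as cyrano, stood at 22.5, 32.4 and 19.96 CPM with Ad-GFP, 66.0, 68.3 and 17.8 with Ad-HNF4A and 66.8, 62.4 and 19.7 with Ad-K458R. Replicate 3 of each vector group lay below all Ad-GFP libraries, and the other vector libraries above them. Its log2 fold changes of 1.02 and 0.997 had adjusted p of 0.49 and 0.58 (edgeR), while OIP5 lay between 17.0 and 21.6 CPM. SVIL-AS1 ranged from 5.64 to 18.2 CPM within Ad-HNF4A and LINC00174 from 1.35 to 8.08 CPM within Ad-K458R. The low and high libraries were not the same for these 4 RNAs.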

How the data were processed

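Messenger RNA of 9 Huh-7 xenograft tumours, 3 per group, was sequenced after capture with oligo(dT) beads, per the labels' protocols. The authors deposited 1 table of raw read counts and FPKM for 50868 human genes, per the file headers. Groups came from the sample labels. Trimmomatic and the mouse build mm10 are named in the submitters' processing notes. How reads were aligned and counted, and how mouse reads were treated, is not stated in the labels. Positions are those of the table, which for 193 of 212 members equal GENCODE 29 on GRCh38.

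The counts the authors deposited entered edgeR 4.0.16 (R 4.3.3), whose quasi-likelihood test was run on 1 robust fit of all 9 libraries with TMM scaling. Its low-count filter kept 16697 genes and all 212 members. Two-sided p-values were adjusted across these genes (Benjamini-Hochberg), with calls at adjusted p-values under 0.05. The authors' FPKM entered only limma-trend (limma 3.58.1) as an alternative, on log2(FPKM + 1) and log2(FPKM + 0.1). Other alternatives were DESeq2 1.42.0, limma-voom, other scalings and filters, the 6 libraries of a comparison, a replicate block, a fold limit of 1.2, other limits for members, and leaving out each library. The fit was tested on simulated counts. Single values were compared by an exact permutation test.

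The text names all called members, the 5 with the smallest p where fewer than 5 were called, the 10 with the highest mean CPM, members of the lists, those beside the limit, HNF4A, and the partners or neighbours of members named. Members, lists and tests were chosen with earlier results of these data known. Start regions and exon models are RefSeq's and GENCODE 29's, and 153 of 212 members had a start region in RefSeq, matched by symbol. A count of reads is not a count of molecules, as reads carried no molecular tags. Values of some single genes are left out of the text.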

Additional observations from a re-analysis of the deposited data

How the results depend on the processing

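Rises with Ad-HNF4A against Ad-GFP numbered 5 by the test used and 3 in the fit of 6 libraries, with the replicate block and with a fold limit of 1.2, and 3 to 4 when 1 library was left out. They numbered 10 of 370 with a mean count of 20 or more as the limit for members, and 1 of 125 with 100 or more. Among the 87 members that overlap no other tested gene they numbered 2. The share of all genes higher with Ad-HNF4A was 3.16%. The fall numbered 1, and 3 with DESeq2 and without a filter, 2 with upper quartile scaling, 0 in the fit of 6 libraries, with the block, with the fold limit, with 100 counts and among members without overlap, and 0 to 2 when 1 library was left out. With Ad-K458R the 5 rises became 3 to 4 without 1 library, while DESeq2 called 1 fall. With limits of 20 and 100 counts the rises became 9 of 370 and 1 of 125, and 2 of 87 among members without overlap. The share of all genes higher with Ad-K458R was 3.32%. DESeq2 called 6 rises in each comparison, adding SDCBP2-AS1 with Ad-HNF4A and LINC00857 with Ad-K458R. Between the vectors every alternative called 0 members. With the replicate block, 4 members rose with Ad-K458R and 0 fell. Deviations from the group means correlated at -0.0379 to 0.0526 between same-numbered libraries and at -0.0649 to 0.0452 between differently numbered ones. Replicate numbers thus showed no shared deviation, which does not show that the libraries were unpaired.

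The members' median log2 fold change with Ad-HNF4A, 0.0160, was 0.0099 with DESeq2, 0.0031 with limma-voom, 0.0389 with library totals alone, 0.0070 without a filter, 0.0096 with the replicate block, 0.0488, 0.0070 and 0.0224 with limits of 20 counts, 100 counts and 2.5 CPM, -0.0138 among members without overlap, and -0.0200 to 0.0218 without 1 library. Between the vectors it was -0.0286 with 100 counts. HNF4A differed between the vectors by 0.222 to 0.557 without 1 library, and passed (adjusted p = 0.043) at 0.557, without Ad-HNF4A replicate 3. The causes were not tested. Low counts limit single values, with 5 to 19 counts of HNF4A-AS1 in the Ad-GFP libraries.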

Other observations

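Rows with a matching name below the limit of 50 mean counts also held calls. Of 373 such rows that were tested, 8 were higher with Ad-HNF4A (2.14%) and 7 with Ad-K458R (1.88%), and 0 were lower in either (edgeR, adjusted p under 0.05). Of all genes tested, 3.16% and 3.32% were higher, so calls were no more frequent among these rows. The 7 were LINC00955, LINC00967, LINC01451, LINC02158, LINC02732, LINC02798 and SMIM2-AS1, and the eighth with Ad-HNF4A was LINC01833. They were named because they passed. Rows this low could pass the filter on low counts through the groups where they were high, so their number supports nothing on its own.

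LINC00955 (chromosome 4, 3576869 to 3590711) and LINC00967 were without a count in all 3 control libraries. LINC00955 stood at 1.25, 1.22 and 2.17 CPM with Ad-HNF4A and 3.19, 2.89 and 2.23 CPM with Ad-K458R. LINC00967 stood at 0.877, 1.16 and 1.51 CPM with Ad-HNF4A and at 2.53, 2.39 and 3.01 CPM with Ad-K458R. For LINC00955 the lowest library with Ad-K458R lay above the highest with Ad-HNF4A by little, at 2.23 against 2.17 CPM, and for LINC00967 by more, at 2.39 against 1.51 CPM. LINC02158 (chromosome 3, 42770612 to 42773635) stood at up to 0.0544 CPM with Ad-GFP, 0.940, 1.22 and 1.01 CPM with Ad-HNF4A and 1.81, 2.44 and 2.4 CPM with Ad-K458R, so that its 3 groups did not overlap. LINC02732 was also higher with Ad-K458R than with Ad-HNF4A without overlap. LINC02798 and LINC01833 were lower without overlap (log2 differences -0.64 and -0.50), and LINC01451 and SMIM2-AS1 overlapped. Between the vectors the groups did not overlap for 14.4% of all genes tested. None of these differences between the vectors passed the adjusted test.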
